A study of Drosophila melanogaster with 3 samples.

Results

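HmgD, HmgZ and Dsp1 encode abundant chromatin proteins of the fly that carry HMG boxes, and they are described here by the peaks of the CG15011 protein found at and around them. The 3 genes, of 13945 protein-coding genes on the chromosome arms, were matched by symbol in Ensembl release 115, and all 3 matched. They were chosen from measured values of these samples, namely the presence and signal of optimal peaks at them, so their peaks are given as a description and without a test. Of the 3237 peaks in the optimal set, 6 lie within 10 kb of these genes. Whole Drosophila melanogaster embryos, 0 to 24 hours old and with both sexes pooled, were sampled in 3 biological replicates from 1 transgenic line that stably expresses CG15011 joined at its C-terminal end to green fluorescent protein (GFP). Chromatin was sheared by sonication and binding was mapped by transcription factor ChIP-seq, with CG15011 given as the antibody target. The text label of every sample names an input control, whereas the deposited notes derive each list from the replicate's own alignment and a separate control alignment, which was not analysed here. All replicates form 1 group, so the data hold no contrast of genotype, treatment or age. In whole embryos, binding in few cells and weak binding in many cells cannot be told apart.

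The HMG box is a small DNA-binding fold that enters the minor groove and bends DNA. Boxes of the kind found in HmgD, HmgZ and Dsp1 do so with little preference for sequence. HmgD and HmgZ are single-box proteins that serve as architectural components of embryonic chromatin. Dsp1 carries a pair of boxes and resembles the vertebrate HMGB proteins. It is known as a co-repressor that acts with Dorsal, the NF-κB family factor that patterns the embryo from back to belly, and as a protein that takes part in bringing Polycomb group proteins to Polycomb response elements (PREs).

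The 6 optimal peaks are lettered in the order of their positions, A to D at HmgD and HmgZ and E and F at Dsp1. Each peak has a summit, the base at which the authors' signal was placed highest. The sequence within 100 bp of the summits of E and F is shown because these are the peaks upstream of and inside Dsp1. It was read from the plus strand of the RefSeq copy of Release 6 (dm6), and capitals mark matches, on either strand, to 1 of the 11 motifs searched.
Peak E, chrX:16332937-16333137: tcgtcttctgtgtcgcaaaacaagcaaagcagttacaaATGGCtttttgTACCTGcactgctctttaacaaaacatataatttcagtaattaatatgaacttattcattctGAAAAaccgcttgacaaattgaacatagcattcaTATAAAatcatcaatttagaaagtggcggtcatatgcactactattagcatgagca
Peak F, chrX:16335277-16335477: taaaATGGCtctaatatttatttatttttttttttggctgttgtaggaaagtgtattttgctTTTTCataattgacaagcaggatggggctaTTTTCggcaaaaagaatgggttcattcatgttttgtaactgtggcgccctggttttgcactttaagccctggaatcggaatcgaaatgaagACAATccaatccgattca
In E, the capitals mark GCCAT, the core bound by Pleiohomeotic, then CAGGTA, the element read by the early embryonic activator Zelda, then GAAAA and TATAAA. The former pair reads on the minus strand and the latter on the plus strand. In F they mark 1 match to GCCAT, a pair of matches to GAAAA and 1 to ATTGT, the core read by Sox proteins, all on the minus strand.

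HmgD (FBgn0004362) lies on the plus strand at 2R 21701458–21716727 and HmgZ (FBgn0010228) on the minus strand at 2R 21697488–21707861. The genes overlap over 6404 bp, which is 61.7% of HmgZ, and 1 of the 4 HmgD transcripts reaches into HmgZ through a first intron of 13341 bp. Each gene has 3 annotated transcription start sites (TSSs). Dsp1 (FBgn0278608) lies on the plus strand at X 16333612–16340624, with 7 transcripts and 2 TSSs. Its upstream TSS at 16333612 stands back to back with a TSS of CG9921 at 16333600, a gene that runs the other way.

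Ranks by the authors' signal were used throughout, with 1 the strongest, because no source used here gives how signal was scaled from list to list. The pooled list, called on the 3 replicates together, and each replicate list hold 30000 peaks. The 3237 optimal peaks are the 3237 strongest pooled peaks, so an optimal peak has the same rank in both. The number of reads behind a peak is unknown, so no counting interval can be given.

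The strongest peak at any of the 3 genes lay in an intron shared by HmgD and HmgZ. Peak B (2R 21703206–21703666, summit 21703397) was the 15th strongest of the optimal set, at rank 15 with a signal of 1835.39 against an optimal median of 247.501. Its rank was 13 in replicate 1, 16 in replicate 2 and 16 in replicate 3, a mean of 15 ± 1.73 (SD, n = 3). The replicates thus placed it almost alike, with a highest-to-lowest rank ratio of 1.23. Of the 3111 optimal peaks found in all replicates, only 6.04% had a ratio as small. The summit falls in an intron of 2 of 4 HmgZ transcripts and of 1 of 4 HmgD transcripts. It lies 567 bp upstream of the HmgZ TSS at 21702830, 1104 bp downstream of the HmgZ TSS at 21704501 and 1939 bp downstream of the distal HmgD TSS. By distance it therefore belongs to HmgZ, and by transcript structure to both genes.

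The position of B was less alike between replicates than its rank. The summit was at 21703386 in replicate 1, 21703406 in replicate 2 and 21703474 in replicate 3, a spread of 88 bp, while the median spread of the 25 strongest optimal peaks was 19 bp. Replicates 1 and 2 each listed a second summit in the same stretch, 203 bp from the first in replicate 1 at rank 373 and 221 bp from it in replicate 2 at rank 2528. Replicate 3 had no second summit there, and its single summit stood between the others' first and second ones.

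Peak B was the 6th strongest optimal peak in an intron. The 3 intronic peaks ranked just above it lay in Trl, the gene of the GAGA factor, at rank 5, in Lk6, a protein kinase gene, at rank 11, and in CG32772 at rank 13. Just below it came peaks in sbb, a transcriptional co-repressor gene, at rank 19, in CG9663 at rank 25 and in Tlk, a protein kinase gene, at rank 30. The replicate summits of these 6 peaks lay within 8 to 46 bp of each other, closer in each case than the 88 bp of B.

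Only peak C had its optimal summit at a TSS (within 500 bp) of any of the 3 genes. It lies at 2R 21704307–21704750 with its summit 28 bp upstream of the HmgZ TSS at 21704501, from which 1 of 4 HmgZ transcripts starts. The pooled rank was 2735, with a signal of 177.495 against a lowest optimal signal of 157.844, so it was among the weaker peaks of the set. It ranked 3057 in replicate 1, 5805 in replicate 2 and 1048 in replicate 3. The worst rank was 5.54 times the best, and 93.5% of the optimal peaks found in all replicates had a smaller or equal ratio. The summits were also apart by up to 206 bp, and 97.8% of those peaks had a spread as small or smaller. C had the largest ratio and the largest spread of the 6 peaks. A weaker pooled peak stands beside it with its summit at 21704779, at rank 16652, and the replicate 3 summit at 21704674 lies 105 bp from that one and 145 bp from C. Both the ratio and the spread of C may therefore compare 2 neighbouring summits. Of all optimal peaks, 9.02% had a replicate summit that lay nearer to another pooled summit in this way.

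Peaks A and D flank these. Peak A (2R 21700653–21701096) lies in an intron of all 4 HmgZ transcripts and 583 bp upstream of the distal HmgD TSS at 21701458, where the neighbouring gene starts on the other strand. It ranked 2209 in the pooled list and 1708, 3367 and 3105 in replicates 1, 2 and 3, so in replicate 2 it fell outside as many strongest peaks as the optimal set holds. Peak D (2R 21705874–21706317) lies in an intron of 1 HmgZ and 1 HmgD transcript, 1595 bp upstream of the HmgZ TSS at 21704501. It ranked 1872 in the pooled list and 1831, 2068 and 2726 in the replicates, inside that number in each. The summits of A were up to 117 bp apart between replicates and those taken for D up to 185 bp. Beside D, the pooled list has another peak with its summit at 21706299, at rank 4536, and the replicate 1 and 3 summits, at 21706236 and 21706280, lie nearer to that one than to D. Replicate 2 has a summit at each place, so the values given for D may join 2 neighbouring summits. With B and C they form a run of 4 optimal summits in which each has a neighbour within 1132 to 2522 bp.

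**Figure D1:**
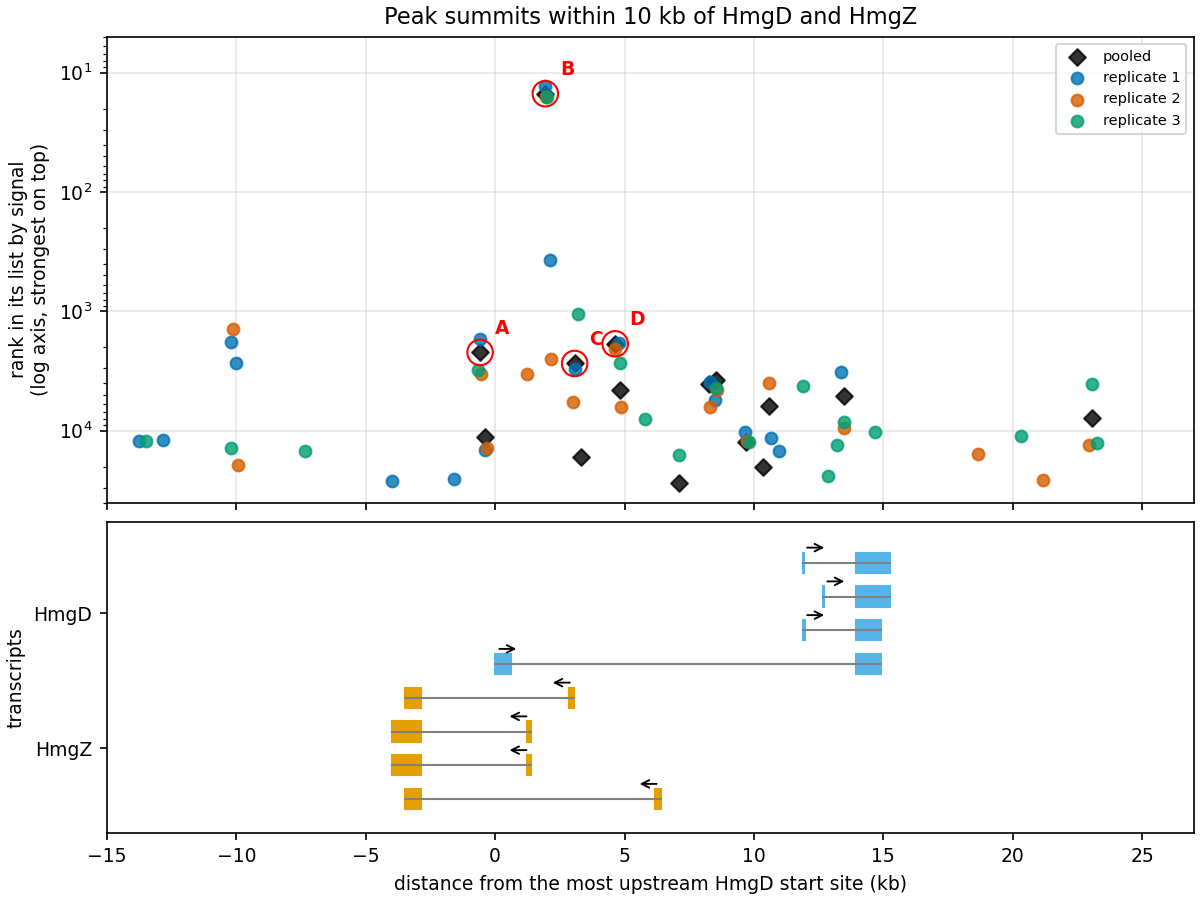
Peak summits within 10 kb of HmgD and HmgZ: the upper panel plots rank by signal (log axis, strongest on top) against distance from the most upstream HmgD TSS in kb, for the pooled list (diamonds) and the 3 replicates (circles), with optimal peaks circled in red and lettered; the lower panel draws each transcript with exons as boxes, introns as lines and arrows for direction. B stands at ranks 13 to 16 in every list, while A, C and D lie between 1048 and 5805.

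Upstream of Dsp1, peak E (X 16332979–16333160, summit 16333037) had a pooled rank of 161 and a signal of 859.055. Its rank was 230 in replicate 1, 147 in replicate 2 and 167 in replicate 3, a mean of 181.333 ± 43.3 (SD, n = 3). Every replicate thus placed it within its 230 strongest peaks. The summit was at the same base, 16333037, in replicates 1 and 2 and at 16333012 in replicate 3, a spread of 25 bp. This was the smallest spread of the 6 peaks, close to the median of 25.5 bp of the optimal peaks ranked 100 to 200. At 182 bp, E was also narrow, since 6.83% of optimal peaks were as narrow or narrower and 4 of the 200 strongest were under 200 bp. Of all optimal peaks, 78.2% had the same width of 444 bp, so the share of 6.83% mostly sets E against that width. In the replicate lists the peak was 410 bp wide in replicate 1, 152 bp in replicate 2 and 456 bp in replicate 3, where 410 and 456 bp are the usual widths of those lists.

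Peak E could not be assigned to Dsp1 alone. Its summit lies 575 bp upstream of the nearer Dsp1 TSS and 563 bp downstream of the CG9921 TSS at 16333600, in an intron of CG9921. It is also 989 bp upstream of another CG9921 TSS, at 16332048. Peak E therefore counted neither as a promoter peak, the limit being 500 bp, nor as an intronic peak of Dsp1. Among all optimal summits, 113 (3.49%) lay over 500 and up to 600 bp from their nearest TSS.

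Inside Dsp1, peak F (X 16335155–16335598, summit 16335377) lies in an intron of 6 of 7 transcripts. It is 1765 bp downstream of the upstream TSS and 807 bp upstream of the TSS at 16336184, from which the remaining transcript starts. It ranked 2043 in the pooled list and 3231, 2000 and 1726 in replicates 1, 2 and 3, inside the 3237 strongest in each but near that number in replicate 1. Its summit was 138 bp apart at most, because replicate 1 placed it at 16335246 and replicates 2 and 3 at 16335384 and 16335357. Replicate 1 listed a second, weaker summit at 16335451, at rank 13417, and so had summits on both sides of the place the others gave.

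**Figure D2:**
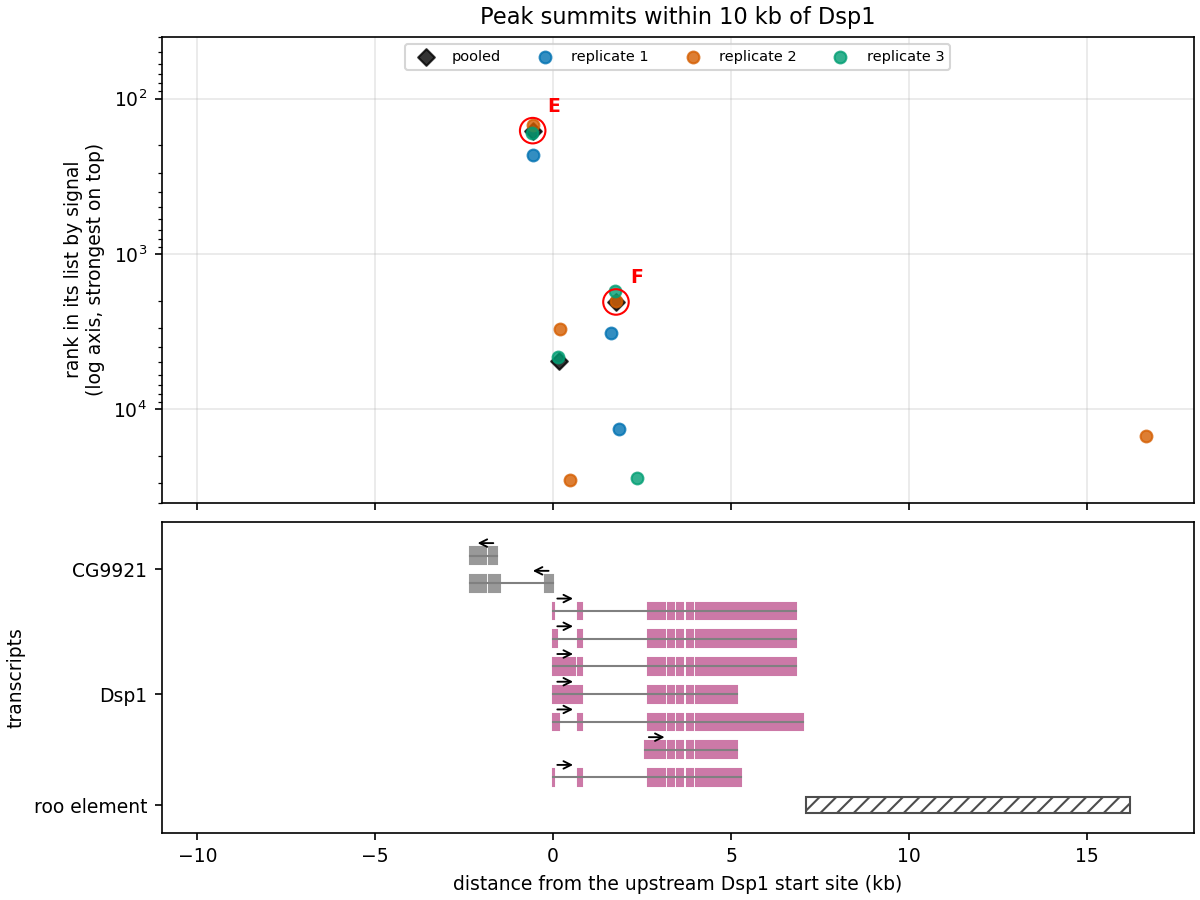
Peak summits within 10 kb of Dsp1: the upper panel plots rank by signal (log axis, strongest on top) against distance from the upstream Dsp1 TSS in kb, for the pooled list (diamonds) and the 3 replicates (circles), with optimal peaks circled in red and lettered; the lower panel draws the transcripts of CG9921 and Dsp1 and the annotated roo element. E lies just upstream of the Dsp1 start site, in an intron of CG9921, at ranks 147 to 230, and no summit of any list falls in the roo element.

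Compared with each other, the 6 peaks form 2 levels. B and E stood within the 200 strongest optimal peaks, and A, C, D and F ranked between 1872 and 2735. The replicates kept this order, since the worst replicate rank of B and E together was 230 and the best of the other 4 was 1048. B, D, E and F were within the 3237 strongest of every replicate, whereas A and C missed that number in replicate 2. Over all optimal peaks 60.4% were within it in every replicate, and of those with pooled ranks 1800 to 2800, like A, C, D and F, 33.0% were.

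**Figure D3:**
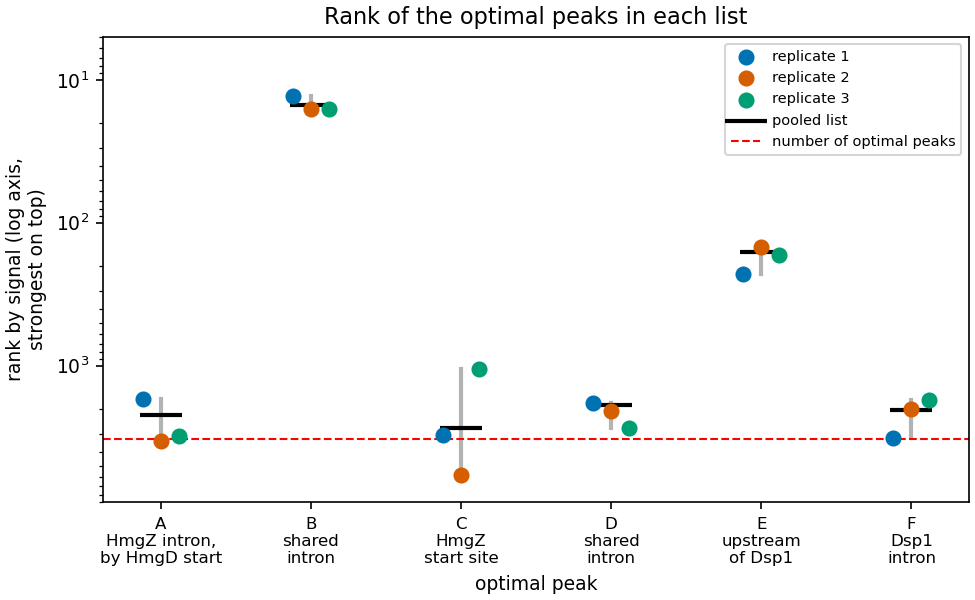
Rank by signal (log axis, strongest on top) of the 6 optimal peaks in replicates 1, 2 and 3 (points) and in the pooled list (black bars); grey lines span the replicates and the dashed red line marks rank 3237. B and E lie above all others in each replicate, and A and C in replicate 2 lie below the dashed line.

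Of the 8 start sites of the 3 genes, only that of peak C held an optimal summit. The share over all annotated start sites was not counted, so this number is not read as low or high. None of the 3 HmgD TSSs held any optimal summit up to 500 bp away. The distal one had a pooled summit at rank 11361, 383 bp upstream, with ranks of 14478 in replicate 1 and 14091 in replicate 2 and none in replicate 3, and the proximal ones at 21713356 and 21714136 had a summit in replicate 3 alone, at ranks 4231 and 23971. At HmgZ, the TSS at 21702830, used by 2 of 4 transcripts, had a summit in replicate 2 alone, at rank 3366, and the TSS at 21707861 had none in any list. The upstream TSS of Dsp1, used by 6 of 7 transcripts, had a pooled summit 177 bp downstream at rank 4900, with ranks of 3070 in replicate 2 and 4603 in replicate 3 and none in replicate 1. The downstream Dsp1 TSS had a summit in replicate 3 alone, at rank 27667. Of the 8 TSSs of the 3 genes, that of peak C was thus the sole one with a summit in every list.

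Read against all protein-coding genes, 1 of the 3 genes, HmgZ, carried an optimal promoter summit, one within 500 bp of its TSS, where 10.8% of 13945 genes did. All 3 had an optimal summit in an intron and over 500 bp from any TSS, where 5.82% did: 2 for HmgD (B and D), 3 for HmgZ (A, B and D) and 1 for Dsp1 (F). Of these peaks, A, B and F lay 583, 567 and 807 bp from their nearest TSS, and D lay 1595 bp from its own. All 3 had one within 10 kb, where 46.2% did. HmgD and HmgZ each had 4 within 10 kb, and these are the same 4 peaks, where 4.34% of genes had 4 or more. Each gene had 1 of the 200 strongest optimal peaks within 10 kb, where 6.15% did, although HmgD and HmgZ share theirs. Because the genes were chosen on such peaks, nothing is read from these counts. The shares were higher among the 1306 protein-coding genes of 7 to 16 kb, a range that holds all 3. Of these, 16.4% had a promoter summit, 16.7% an intronic one and 7.20% had 4 or more within 10 kb. Why the shares were higher was not tested.

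Around HmgD and HmgZ, a window of 39240 bp held 4 optimal summits, 15 pooled ones and 18, 18 and 19 in replicates 1, 2 and 3. Pooled summits stood at 3.82 per 10 kb there, against 2.24 over the arms, and optimal ones at 1.02 against 0.242. The genes were chosen on their optimal peaks, which are also in the pooled list, so nothing is read from these densities. Joined where they lay within 250 bp, the summits made 27 clusters, of which 7 were in the pooled list and all 3 replicates and 16 were in 1 replicate. Besides A to D, the clusters in the pooled list and all 3 replicates held no optimal peak. They were at the non-coding gene lncRNA:CR44749, with a best pooled rank of 3791, at CG30403, with 12559, and in an HmgD intron at 21714677–21714946, with 5149. The last ranked 3224 in replicate 1 but 9434 and 8383 in replicates 2 and 3. The cluster at lncRNA:CR44749 holds 2 pooled peaks, at ranks 3791 and 4095, and the best replicate rank in it was 3878, 4519 and 4391 in replicates 1, 2 and 3. The former of the pair, with its summit at 21709989, was the strongest pooled peak in the window outside the optimal set, and C was the weakest inside it. The nearest replicate 1 summit to it, at 21709974, had rank 5566.

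The window at Dsp1 held fewer pooled and more optimal summits per 10 kb than the arms. Its 27013 bp held 2 optimal and 3 pooled summits, and 3, 5 and 4 in replicates 1, 2 and 3. Pooled summits stood at 1.11 per 10 kb against 2.24 over the arms, while optimal ones stood at 0.740 against 0.242. As Dsp1 was chosen on its optimal peaks, which are also in the pooled list, nothing is read from these densities. A copy of the retrotransposon roo takes up 9099 bp, or 33.7% of the window, and holds no summit in any list. No source used here gives whether reads from repeats were kept. The strongest pooled peak outside the optimal set was the one at the upstream Dsp1 TSS, with a signal of 119.086, and F was the weakest inside it, with 214.897.

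Of the clusters around HmgD and HmgZ, 15 were in 1 replicate and not in the pooled list, and 1 was in all 3 replicates and not in the pooled list. At this last one, the promoter shared by Ppcdc, a gene of coenzyme A synthesis, and CG42496 had its best summit at rank 1792 in replicate 1, 1412 in replicate 2 and 13837 in replicate 3, at 6170 to 6238 bp beyond the end of HmgZ, and none in the pooled list. Over the whole lists, 4.79%, 2.63% and 3.12% of the 3237 strongest peaks of replicates 1, 2 and 3 overlapped no pooled peak. Beyond 10 kb, the nearest optimal peak was 27427 bp from the HmgD and HmgZ pair, near NC2alpha at rank 2152, and 43509 bp from Dsp1, near CG9992 at rank 273.

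Summit position and base composition also varied among the 6 peaks. The replicate summits of the 6 peaks were 88 to 206 bp apart, apart from E at 25 bp. Over the optimal peaks found in all replicates the median was 52 bp with quartiles of 27 and 93 bp (n = 3111). A, C, D and F thus lay above the upper quartile, and the median of 953 peaks of like pooled rank that were found in every replicate was 62 bp. For C and D these distances may span 2 pooled summits, as given above. For F, replicate 1 gave summits at 16335246 and 16335451, and its distance rests on the stronger, at 16335246. The G + C share of the 201 bases around the summit was 44.3% for A, 35.8% for B, 52.2% for C, 55.7% for D, 33.3% for E and 36.3% for F. A, C and D lay above the upper quartile of all optimal peaks, 39.3%, and B, E and F lay inside the middle range from 30.3%. A, C and D were both richer in G + C and more spread than the quartiles of the set, and F was as spread with a G + C share inside them. How base composition bears on the spread was not tested.

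**Figure D4:**
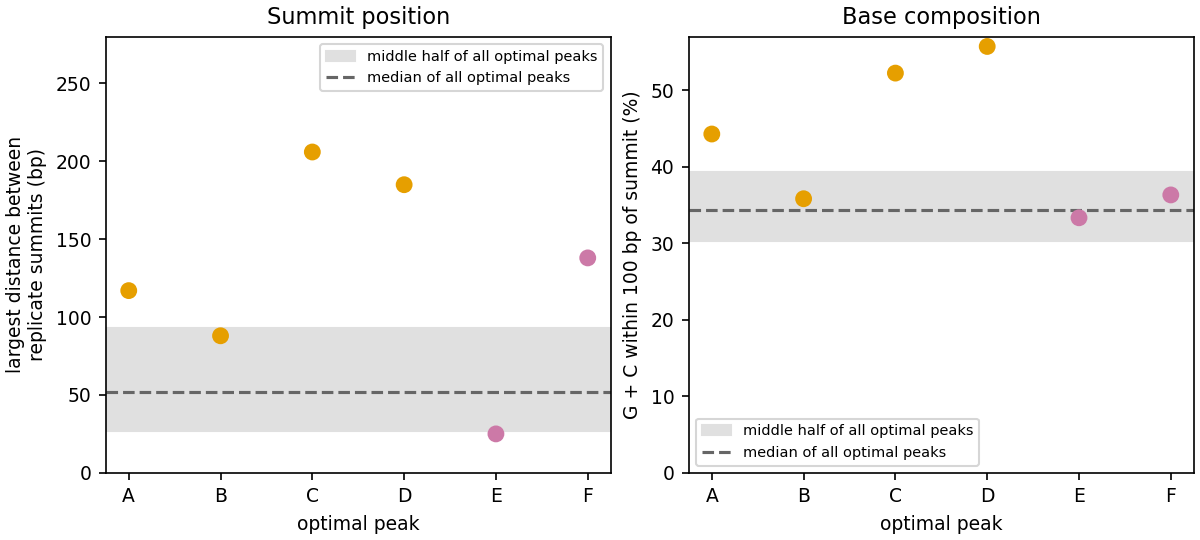
Left, the largest distance in bp between the summits of the 3 replicates, and right, the G + C share in percent within 100 bp of the pooled summit, for the peaks at HmgD and HmgZ (orange) and at Dsp1 (pink). The band spans the quartiles of all optimal peaks, on the left of those found in all replicates, and the dashed line is their median. A, C and D lie above the band in both panels, and E lies below the median in both.

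The motifs in the 201-base windows differed from peak to peak. The letters searched on both strands were GAGAG, bound by the GAGA factor, TATCGATA, the DNA replication-related element, and CGATA, the core of the factor BEAF-32. CGATA is contained in TATCGATA. The Pleiohomeotic core GCCAT, the Zelda element CAGGTA and the Sox core ATTGT were searched too, with GAAAA, which was described for Dsp1 at Polycomb response elements. The remaining letters were CACGTG for the E-box, TATAAA for the TATA box, the CA repeat CACACACA and the element GGTCACAC. At least 1 match was found for 16 of the 66 pairs of peak and motif. GCCAT was in A, C, E and F, where 26.0% of all optimal windows had it. C had 3 matches, which start between 4 bp before and 12 bp after its pooled summit on the plus strand. The replicate summits of C lay up to 206 bp apart. As many or more were in 0.463% of optimal windows, the smallest such share among the 66 pairs. A had 2 matches, where 4.63% had as many or more. The windows were not matched for G + C share. GAAAA was in B, D, E and F, where 72.2% had it, and F had 2 matches. CAGGTA was in E, where 3.92% had it, and CACACACA in D, where 3.89% had it. CGATA was in A and C, where 24.8% had it, and GAGAG in D, where 22.7% had it. C had 2 matches to CGATA, where 5.84% had as many or more. TATAAA was in B and E, where 37.8% had it, and ATTGT in F, where 52.0% had it, while TATCGATA, CACGTG and GGTCACAC were in none of the 6 windows.

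Other HMG-box genes gave a setting for the 3. Of 18 listed, all matched by symbol, 5 had an optimal promoter summit, 2 an intronic one, 6 either and 11 one within 10 kb, where 10.8%, 5.82%, 14.7% and 46.2% of all protein-coding genes did. The median within 10 kb was 1 against 0 over all protein-coding genes. Ordered by the rank of a promoter or intronic peak, Sox14, an ecdysone-responsive Sox gene, came first with a promoter peak at rank 89 with replicate ranks of 70, 76 and 139. The gene bbx had a promoter peak at rank 91, with replicate ranks of 87, 73 and 153, and an intronic one at rank 378. In cic, which encodes the repressor Capicua, the strongest of 3 intronic peaks was at rank 385, with replicate ranks of 481, 467 and 262. Hmg-2 had a promoter peak at rank 1052, with replicate ranks of 737, 1356 and 1340. CG12104 had an optimal peak at rank 248 within 10 kb, but neither at a start site nor in an intron of its own. No optimal summit lay within 10 kb of Ssrp, which encodes a subunit of the histone chaperone FACT, SoxN, Sox21a, Sox21b, TFAM, tHMG1 or tHMG2. Among all these genes the peak of HmgD and HmgZ had the best rank, and it is the one on which they were chosen.

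**Figure D5:**
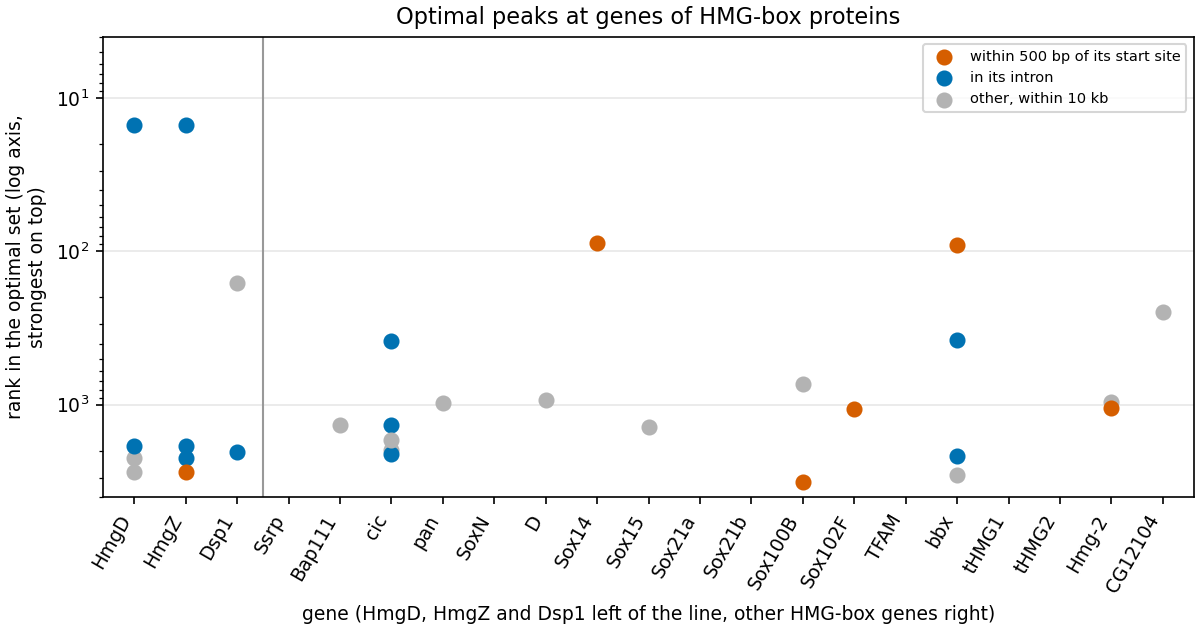
Optimal peaks at genes of HMG-box proteins: rank in the optimal set (log axis, strongest on top) of every optimal peak within 10 kb, by gene, with HmgD, HmgZ and Dsp1 left of the line. Orange points lie within 500 bp of the gene's own TSS, blue points in its intron and over 500 bp from any TSS, and grey points elsewhere within 10 kb, among them peak C for HmgD. HmgD and HmgZ share the point at rank 15, Dsp1 has 161, and the best of the others are Sox14 at 89 and bbx at 91.

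A further list, written by hand, took genes of factors that bind Polycomb response elements and genes of Dorsal and its partners. Of 14 listed, all matched, 5 had an optimal promoter summit, 5 an intronic one, 8 either and 13 one within 10 kb, where 10.8%, 5.82%, 14.7% and 46.2% of all protein-coding genes did. The median within 10 kb was 3 against 0 over all protein-coding genes. Ordered by the rank of a promoter or intronic peak, Trl came first with its intronic peak at rank 5, followed by an intronic peak of Adf1, a sequence-specific activator, at rank 81 with replicate ranks of 53, 80 and 222. The gene gro, which encodes the co-repressor Groucho, had a promoter peak at rank 350 with replicate ranks of 444, 328 and 391. The gene cact, which encodes the inhibitor that holds Dorsal in the cytoplasm, had one at rank 460 with replicate ranks of 979, 375 and 627. The gene phol, which encodes a relative of Pleiohomeotic, and Rel, an NF-κB family gene, had optimal peaks at ranks 67 and 95 within 10 kb, but neither at a start site nor in an intron of their own. Dorsal's own gene, dl, had a promoter peak at rank 1646, and pho, which encodes Pleiohomeotic, had no optimal summit within 10 kb. The strongest optimal peak within 10 kb of dl, at rank 267, was also that of Dif, another gene of the list. Both lists were drawn up with results of these data known, and their counts are a description only. Neither was matched for gene length, and protein-coding genes of 7 to 16 kb had a median of 1 optimal summit within 10 kb.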

How the data were processed

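Peak lists from 3 ChIP-seq replicates, 1 pooled list and 1 optimal set were used on the dm6 assembly, per the labels and the deposited notes. The authors called each replicate against a separate control and derived the optimal set by irreproducible discovery rate (IDR). No source used here gives the IDR threshold, the aligner, the caller or any version. Each list gives the authors' signal per peak, the deposited −log10 q-value, which served to break ties in signal, and the deposited summit offset. Signals were compared only within a list. Peaks were ranked by signal and placed against Ensembl release 115 with Python 3.11.15, pandas 2.3.3 and numpy 2.4.6, and figures were drawn with matplotlib 3.10.9. A summit within 500 bp of any TSS was called promoter, and an intronic summit lay beyond that. Each replicate's value for an optimal peak is that of its strongest peak covering the optimal summit. The depth is unknown.

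The genes and lists were chosen with earlier results of these data known, so no test was made. The text names the 3 genes, genes at optimal summits within 10 kb, the 4 genes of each other list with the strongest promoter or intronic peak and the intronic peaks 3 ranks above and below B. Other genes named were chosen after their values were seen. The counting was checked on simulated peaks. Alternatives were the stronger optimal peaks, each replicate left out, peak overlap, other promoter windows, flanks and motif windows. The replicates are labelled as biological.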

Additional observations from a re-analysis of the deposited data

How the results depend on the processing

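With the stronger 1618 optimal peaks, no gene had a promoter summit and 2 distinct summits, B and E, remained of 6 (0 promoter genes against 1). The promoter count ran from 0 to 1 with a replicate left out: it was 0 without replicate 1 or 3, since C was then lost with replicate 2 required, and 1 without replicate 2. It was 3 for any overlap of the peak and 3 with a window of 1000 bp, which takes in A, B, E and F. The intronic count was 2 with 1000 bp or the stronger peaks and 3 otherwise, and all 3 genes kept a summit within 5, 10 and 20 kb. Distinct summits numbered 4 to 6 with a replicate left out and the same limit applied. Of the other HMG-box genes, 3 rather than 6 had a promoter or intronic summit with 250 bp. For the genes of PRE-binding factors and Dorsal partners the count was 7 or 8 throughout. These 2 lists were put through the alternatives after seeing the data. Peak and motif pairs fell from 16 to 7 within 50 bp and were 22 within 200 bp. The median distance between replicate summits was 127.5 bp, and 68 to 92.5 bp with a replicate left out, which leaves fewer summits to differ. No paired analysis was possible because there is 1 group. Without depths or counts, a summit missing from a list cannot be told from one that was too weak to be listed.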
